A study of Mus musculus with 8 samples.

Results

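Collagen chains are the products of the genes named Col, a number, a, and a number. The chains studied here were all genes with such a symbol in the platform's probe annotation, taken from probe sets annotated to a single gene, and each chain was read from its probe set with the highest mean over the 8 arrays. This gave 36 chains of 12393 measured genes: 9 fibrillar chains, 8 network chains, 3 beaded chains and 16 of other classes. The RefSeq gene table lists 44 mouse genes with such a symbol, and Col24a1, Col27a1, Col8a2, Col6a4, Col6a5, Col6a6, Col23a1 and Col28a1 were not analysed here.

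Expression arrays were made from total RNA of 4 primary soft tissue sarcomas of Braf Ca/Ca; p53 Fl/Fl mice (numbered 1, 2, 3 and 5), 2 sarcomas of Braf Ca/+; p53 Fl/Fl mice (numbered 1 and 2), and normal hind limb muscle, taken from a limb that bore no tumour, with 1 array of each genotype. Every group thus carried the conditional Braf allele called Ca and floxed p53. Tumours were started by injecting an adenovirus that expresses Cre, the recombinase that acts on floxed alleles. The labels give no age, do not name the cell type that took up the virus, and do not say whether each array came from its own animal, so the p-values below measure the spread between these samples. The series title calls the tumours a model of undifferentiated pleomorphic sarcoma.

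Each collagen molecule is a rope of 3 chains. Fibrillar collagens (types I, II, III, V and XI here) pack into the cable-like fibrils that give connective tissue its tensile strength, with type I the bulk of most fibrils and types V and XI setting how fibrils start and how thick they grow. Network collagens form sheets: type IV is the mesh of basement membranes around muscle fibres and vessels, and types VIII and X form lattices in vessel walls and growth cartilage. The beaded collagen, type VI, forms microfilaments around muscle fibres. The other classes sit on fibrils as linkers, span the cell membrane, or lie at basement membranes. In muscle many of these chains are made by fibroblasts between the fibres, and each chain is hydroxylated and folded inside the cell before secretion and cleaved and crosslinked outside it.

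All levels are log2 values of the authors' RMA processing, so a difference of 1 is a 2-fold difference, and the level of one probe set cannot be set against that of another. The upper quartile of 17 genes of tissues that were not sampled was 4.58, and this value is used below as the background level of the arrays. By their mean over the 8 arrays, 22 chains lay above it and 14 at or below it. One of the 17 genes, Cyp2e1, was itself high in muscle, and without it the level was 4.21 and 26 chains lay above it. Muscle fibre RNA set the tissues apart as labelled: 12 of 12 muscle fibre markers fell in sarcomas, with list means of 6.80 to 9.02 in the sarcomas and 12.79 and 12.71 in the Ca/Ca and Ca/+ muscle. Across 12393 genes, Ca/Ca sarcoma 5 had a mean Pearson's r of 0.948 with the other 5 sarcomas, while the others had 0.965 to 0.973. The Ca/Ca muscle had a mean r of 0.915 with the 6 sarcomas and the Ca/+ muscle 0.874. In these bulk samples fewer cells of a type and less RNA per cell cannot be told apart.

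Few collagen chains differed between sarcoma and muscle beyond the spread. In the fit of all genes with limma, Col11a1 rose and Col22a1 and Col4a6 fell in the 6 sarcomas, and the remaining chains did not pass an adjusted p of 0.05. All 3 were dim: Col11a1 was below the background level in both muscles, Col22a1 in all 6 sarcomas and 1 muscle, and Col4a6 on all 8 arrays. That is 1 chain higher and 2 lower of 36, where 13.1% of all 12393 genes were higher and 13.2% were lower. Those shares of all genes were 8.52% and 15.5% after cyclic loess and 8.04% and 16.9% after housekeeping centring. At an unadjusted p under 0.05 there were 9 of 36 chains, against 37.9% of all genes. The chains of types I, III, V and VI lay, for the most part, below the Ca/Ca muscle and near or above the Ca/+ muscle, and the muscles differed from each other by as much as 2.90 for a single chain. Of the 10 housekeeping genes, 3 were themselves higher and 1 lower in sarcomas at an adjusted p under 0.05 in limma. Housekeeping centring moved the difference of every gene by -0.20. The positive differences of Col1a2, Col4a1, Col4a2, Col5a1 and Col5a2, all smaller than that, turned negative under it. They also turned under cyclic loess, as did that of Col6a3, and none of them passed the test under either. The plot of levels by chain shows all 8 arrays for the 22 chains above background.

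**Figure D1:**
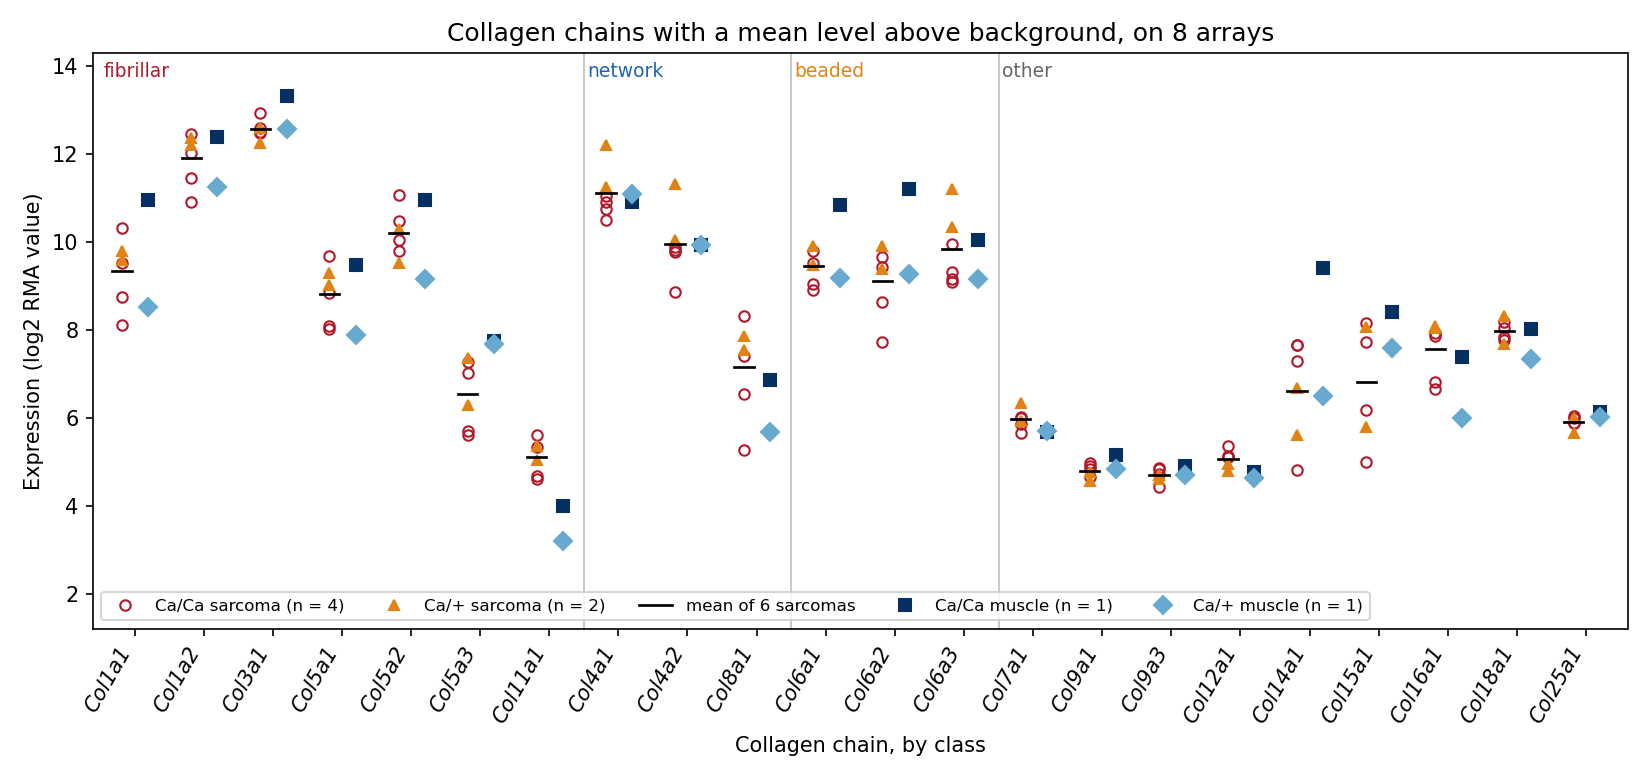
Log2 level (y axis) of the 22 collagen chains whose mean over 8 arrays lay above the background level of 4.58 (x axis, by class); open circles are the 4 Ca/Ca sarcomas, triangles the 2 Ca/+ sarcomas, the bar their mean, the square the Ca/Ca muscle and the diamond the Ca/+ muscle. All 6 sarcomas lie above both muscles for Col11a1 and Col12a1, and the Ca/Ca muscle lies above all 6 sarcomas for Col1a1, Col3a1, Col5a3, Col6a1, Col6a2, Col9a1, Col9a3, Col14a1, Col15a1 and Col25a1.

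Col11a1 encodes the alpha 1 chain of type XI collagen, a minor fibril chain best known from cartilage. Its level was 5.60, 5.34, 4.62 and 4.67 in Ca/Ca sarcomas 1, 2, 3 and 5 and 5.04 and 5.35 in Ca/+ sarcomas 1 and 2, against 4.0 (Ca/Ca muscle) and 3.20 (Ca/+ muscle). All 6 sarcomas were above both muscles, and both muscles were below the background level. The difference was 1.50 (SE 0.32, limma adjusted p = 0.0096). The sarcoma mean was 0.52 above the background level on the log2 scale. That level comes from the probe sets of other genes, so no bound on the fold is drawn from it. The second probe set of Col11a1, below the background level on all 8 arrays, differed by 0.55 in the same direction. The call rested on the Ca/+ muscle: without that array the difference was 1.10 with an adjusted p of 0.126, and without the Ca/Ca muscle it was 1.91 with an adjusted p of 0.0142. In this and all other fits with 1 muscle left, that array is assumed to vary like the sarcomas. Its partner chain in type XI, Col11a2, stayed below background on all 8 arrays, at 3.45 to 4.05 in the sarcomas and 3.99 and 4.29 in the Ca/Ca and Ca/+ muscle. Of 8 cartilage markers 0 rose and 3 fell, where 13.1% of all genes rose and 13.2% fell. The mean level of these markers was 2.71 to 3.04 in the sarcomas and 3.58 and 3.25 in the muscles.

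The promoter of Col11a1, the one chain that rose, is shown from 250 bases before to 50 bases after the RefSeq start (GRCm38.p6, chr3:114030290-114030589, plus strand), with capitals marking matches on either strand to CCAAT, the box bound by the factor NF-Y, and to GGGCGG, a GC box. It holds 1 CCAAT box and 2 GC boxes and no TATAAA.
Col11a1: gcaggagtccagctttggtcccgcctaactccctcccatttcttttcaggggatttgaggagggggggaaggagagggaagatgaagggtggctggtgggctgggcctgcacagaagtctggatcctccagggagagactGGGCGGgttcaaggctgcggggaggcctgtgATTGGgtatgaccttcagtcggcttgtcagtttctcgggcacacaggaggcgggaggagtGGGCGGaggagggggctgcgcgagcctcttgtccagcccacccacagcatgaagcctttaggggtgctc

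Type I collagen is the main fibril protein of tendon, bone and scar. Col1a1, its alpha 1 chain, had 10.32, 9.52, 8.11 and 8.74 in Ca/Ca sarcomas 1, 2, 3 and 5 and 9.60 and 9.78 in Ca/+ sarcomas 1 and 2, against 10.96 (Ca/Ca muscle) and 8.52 (Ca/+ muscle). Every sarcoma was below the Ca/Ca muscle and 5 were above the Ca/+ muscle, so the sarcomas lay between the muscles and overlapped the Ca/+ one. The mean difference was -0.39 (SE 0.70, adjusted p = 0.731 in limma), made of -1.61 against the Ca/Ca muscle and 0.83 against the Ca/+ muscle. A second probe set of Col1a1 gave -0.78, made of -1.95 and 0.38 in the same order. On it Ca/Ca sarcomas 3 (7.67) and 5 (7.37) were below the Ca/+ muscle (7.79). Col1a2, the alpha 2 chain, had 12.45, 12.01, 10.90 and 11.46 in the Ca/Ca sarcomas and 12.37 and 12.21 in the Ca/+ sarcomas, against 12.39 (Ca/Ca muscle) and 11.24 (Ca/+ muscle). Here 1 sarcoma was above the Ca/Ca muscle and 5 were above the Ca/+ muscle. The difference of Col1a2 was 0.08 (SE 0.46, adjusted p = 0.916). A second probe set of Col1a2 gave -0.24, so the sign was not fixed.

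Col3a1 is the chain of type III collagen, which forms thin fibrils with type I in soft tissue. On its brighter probe set it varied little among the tumours. It had 12.94, 12.60, 12.51 and 12.48 in the Ca/Ca sarcomas and 12.26 and 12.60 in the Ca/+ sarcomas, against 13.33 and 12.57 in the Ca/Ca and Ca/+ muscle. The 6 sarcomas were all below the Ca/Ca muscle, and 3 were above the Ca/+ muscle. The difference was -0.39 (SE 0.23, adjusted p = 0.26). Its second probe set varied more, with sarcoma levels of 7.60 to 9.30 and muscle levels of 10.43 and 8.73, and gave a difference of -0.93.

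Type V chains nucleate fibrils that are mostly type I. Col5a1 had 9.68, 8.83, 8.03 and 8.08 in the Ca/Ca sarcomas and 9.01 and 9.30 in the Ca/+ sarcomas, against 9.49 and 7.88 in the Ca/Ca and Ca/+ muscle. Col5a2 had 11.07, 10.47, 10.04 and 9.78 in the Ca/Ca sarcomas and 9.53 and 10.29 in the Ca/+ sarcomas, against 10.96 and 9.17. For both chains 1 sarcoma, Ca/Ca sarcoma 1, was above the Ca/Ca muscle while all 6 were above the Ca/+ muscle. The mean differences were 0.14 and 0.13 with adjusted p-values of 0.88 and 0.879 in limma. Other probe sets gave 0.15 and -0.35 for Col5a1 and -0.50 for Col5a2, so the sign was not fixed. On the sets with negative differences the lowest sarcoma, at 6.92 for Col5a1 and 6.49 for Col5a2, was below the Ca/+ muscle (7.37 and 7.13). Col5a3, a further chain of the type, had 7.27, 7.03, 5.60 and 5.69 in the Ca/Ca sarcomas and 6.28 and 7.35 in the Ca/+ sarcomas, against 7.76 and 7.69. All 6 sarcomas were below both muscles, which were nearly equal, yet the sarcomas spread by 0.79 (SD, n = 6) and their difference from muscle, -1.19 (SE 0.51), missed the threshold (adjusted p = 0.125). Col2a1, the main fibril chain of cartilage, had 3.95, 4.48, 4.14 and 4.12 in the Ca/Ca sarcomas and 4.12 and 3.94 in the Ca/+ sarcomas, all below background, against 5.94 (Ca/Ca muscle) and 4.26 (Ca/+ muscle). Its difference of -0.97 (adjusted p = 0.0896) was -1.81 with an adjusted p of 0.0036 without the Ca/+ muscle, and -0.13 with 0.756 without the Ca/Ca muscle.

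The promoters of Col1a2 and Col3a1 are set side by side because these chains share fibrils and their probe sets were bright on all arrays (RefSeq, GRCm38.p6; Col1a2 chr6:4505368-4505667, plus strand; Col3a1 chr1:45311288-45311587, plus strand; same window and capitals as above, and TATAAA in capitals too). The Col1a2 window holds 2 CCAAT boxes and 2 GC boxes, and the Col3a1 window holds 1 TATAAA and neither of the other motifs. No matches overlapped. Of 32851 RefSeq promoter windows of 300 bases, 37.4% held CCAAT, 35.7% held GGGCGG and 13.6% held TATAAA on either strand, and of the 27 chains with a window the shares were 40.7%, 59.3% and 18.5%.
Col1a2: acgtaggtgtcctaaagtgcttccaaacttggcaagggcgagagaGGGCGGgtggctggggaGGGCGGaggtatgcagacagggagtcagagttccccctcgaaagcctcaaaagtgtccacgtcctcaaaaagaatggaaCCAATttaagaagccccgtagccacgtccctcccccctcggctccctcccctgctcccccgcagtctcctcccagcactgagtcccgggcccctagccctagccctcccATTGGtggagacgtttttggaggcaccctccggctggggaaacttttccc
Col3a1: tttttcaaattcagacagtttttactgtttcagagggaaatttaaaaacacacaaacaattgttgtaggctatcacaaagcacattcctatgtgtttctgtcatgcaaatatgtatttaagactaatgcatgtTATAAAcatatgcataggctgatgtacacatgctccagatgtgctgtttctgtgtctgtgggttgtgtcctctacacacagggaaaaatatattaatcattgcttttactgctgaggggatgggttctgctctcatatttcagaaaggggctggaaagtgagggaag

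Among the network collagens, the chains of type IV found in nearly all basement membranes, Col4a1 and Col4a2, did not pass the test between sarcoma and muscle. Col4a1 had 11.04, 10.92, 10.50 and 10.74 in the Ca/Ca sarcomas and 12.20 and 11.26 in the Ca/+ sarcomas, against 10.90 and 11.08 in the Ca/Ca and Ca/+ muscle. Col4a2 had 9.89, 9.78, 8.87 and 9.82 in the Ca/Ca sarcomas and 11.33 and 10.05 in the Ca/+ sarcomas, against 9.92 and 9.93. For both chains the muscles lay inside the range of the sarcomas, Ca/+ sarcoma 1 was highest and Ca/Ca sarcoma 3 was lowest. The differences of 0.12 (SE 0.39, adjusted p = 0.863) and 0.03 (SE 0.51, adjusted p = 0.974) became -0.09 and -0.17 with the shift that housekeeping centring gives every gene. Of 10 endothelial and mural cell markers, cells whose basement membranes hold type IV collagen, 0 rose and 6 fell in sarcomas. Of all genes, 13.1% rose and 13.2% fell. The means of this marker list were 5.98 to 6.70 in the sarcomas and 7.92 and 8.13 in the muscles.

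The genes Col4a1 and Col4a2 lie head to head on chromosome 8, with RefSeq starts 21 bases apart, and their printed windows share 78 bases that hold 1 GC box in common (GRCm38.p6; Col4a1 chr8:11312777-11313076, minus strand; Col4a2 chr8:11312555-11312854, plus strand). By these starts the first bases of the genes overlap. The common GC box begins at base 10 of Col4a1 and base 8 of Col4a2, after both starts. The windows are shown because the genes share this stretch and their levels correlated across tumours. Capitals mark CCAAT and GGGCGG on either strand, 1 and 1 in the Col4a1 window and 1 and 3 in the Col4a2 window.
Col4a1: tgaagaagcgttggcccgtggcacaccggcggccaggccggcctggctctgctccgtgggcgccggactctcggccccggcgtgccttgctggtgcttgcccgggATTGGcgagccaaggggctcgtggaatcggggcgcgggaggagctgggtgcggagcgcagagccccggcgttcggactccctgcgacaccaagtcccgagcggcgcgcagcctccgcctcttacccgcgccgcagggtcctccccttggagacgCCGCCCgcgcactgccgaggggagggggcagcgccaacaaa
Col4a2: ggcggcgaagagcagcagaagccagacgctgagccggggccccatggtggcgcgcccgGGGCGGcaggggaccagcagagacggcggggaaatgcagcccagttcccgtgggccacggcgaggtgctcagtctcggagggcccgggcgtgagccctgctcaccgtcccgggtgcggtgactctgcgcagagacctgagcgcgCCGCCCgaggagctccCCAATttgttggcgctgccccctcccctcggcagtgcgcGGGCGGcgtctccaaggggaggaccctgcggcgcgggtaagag

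The remaining type IV chains, of specialised basement membranes such as those of kidney and cochlea, had means at or below the background level. Col4a6 had 3.95, 3.84, 3.65 and 3.65 in the Ca/Ca sarcomas and 3.73 and 3.38 in the Ca/+ sarcomas, against 4.29 (Ca/Ca muscle) and 4.40 (Ca/+ muscle). Every sarcoma was below both muscles, though every array was below background. The second probe set of Col4a6, also below background on every array, differed by -0.33. There Ca/Ca sarcoma 1 (3.26) was above both the Ca/Ca muscle (3.23) and the Ca/+ muscle (3.16). On the probe set used, Col4a6 fell by 0.64 (SE 0.16, limma adjusted p = 0.0193), a difference between dim values from which no fold is drawn. Leaving out either muscle ended this call, which gave -0.70 (adjusted p = 0.0705) when the Ca/Ca muscle was left out and -0.59 (adjusted p = 0.155) when the Ca/+ muscle was left out. Col4a5, its neighbour on the X chromosome, had 5.95 in Ca/Ca sarcoma 1 and 3.94, 3.13 and 3.98 in Ca/Ca sarcomas 2, 3 and 5, with 3.92 and 3.67 in the Ca/+ sarcomas, against 5.33 and 5.22 in the muscles. Only Ca/Ca sarcoma 1 was above the muscles. The difference of Col4a5 was -1.18 (SE 0.61, adjusted p = 0.203) over 6 sarcomas and -1.55 with an adjusted p of 0.0054 without Ca/Ca sarcoma 1. A second probe set of Col4a5 gave -0.38 over 6 sarcomas, with the Ca/Ca (4.47) and Ca/+ (4.30) muscle both below background. Col4a3 had 4.45, 4.24, 4.53 and 4.28 in the Ca/Ca sarcomas and 4.16 and 3.97 in the Ca/+ sarcomas, against 4.08 and 4.39. Col4a4 had 2.13, 2.18, 2.57 and 2.23 in the Ca/Ca sarcomas and 2.10 and 2.02 in the Ca/+ sarcomas, against 2.16 and 2.33. Neither separated the tissues.

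Col8a1, a short network chain made by vessel wall and corneal cells, ranged widely among the tumours. It had 8.32, 7.41, 6.53 and 5.26 in the Ca/Ca sarcomas and 7.55 and 7.85 in the Ca/+ sarcomas, against 6.87 and 5.68 in the Ca/Ca and Ca/+ muscle. Ca/Ca sarcoma 5 was below both muscles and 4 sarcomas were above both. The difference was 0.88 (SE 0.74, adjusted p = 0.434). In the Ca/+ arrays alone, 2 sarcomas against 1 muscle with no spread of its own, it was 2.02 with an adjusted p of 0.035. Col10a1, the chain of growth plate cartilage, stayed below background at 3.54 to 4.25 in the sarcomas and 3.92 and 3.79 in the muscles.

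Type VI collagen, whose loss causes muscular dystrophy in people, is built from the chains of Col6a1, Col6a2 and Col6a3 in muscle. Col6a1 had 9.78, 9.53, 8.92 and 9.05 in the Ca/Ca sarcomas and 9.91 and 9.47 in the Ca/+ sarcomas, against 10.85 and 9.19 in the Ca/Ca and Ca/+ muscle. Col6a2 had 9.67, 9.43, 8.63 and 7.71 in the Ca/Ca sarcomas and 9.90 and 9.38 in the Ca/+ sarcomas, against 11.20 and 9.27. The 6 sarcomas were all below the Ca/Ca muscle for both chains, and 4 were above the Ca/+ muscle. Col6a3, the largest chain of the type, had 9.08, 9.95, 9.16 and 9.32 in the Ca/Ca sarcomas and 11.22 and 10.33 in the Ca/+ sarcomas, against 10.05 and 9.16. Both Ca/+ sarcomas were above the Ca/Ca muscle and all 4 Ca/Ca sarcomas were below it. None of these chains passed against muscle: the differences were -0.57 (adjusted p = 0.373), -1.11 (adjusted p = 0.255) and 0.24 (adjusted p = 0.800).

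Col22a1 encodes a fibril-associated chain that sits at the junction of muscle and tendon. It had 3.59, 3.78, 3.94 and 3.67 in the Ca/Ca sarcomas and 3.71 and 3.65 in the Ca/+ sarcomas, against 5.03 (Ca/Ca muscle) and 4.43 (Ca/+ muscle). The sarcomas had an SD of 0.12 (n = 6), and all were below both muscles and below background, as was the Ca/+ muscle. The second probe set of Col22a1, below background on every array, differed by -0.63. On the probe set used, Col22a1 fell by 1.01 (SE 0.17, limma adjusted p = 0.0042), while the muscle mean was 0.15 above the background level. The call held without either muscle, at -0.71 (adjusted p = 0.0318) and -1.31 (adjusted p = 0.0052) when the Ca/Ca or the Ca/+ muscle was left out, and was lost in the Ca/+ arrays alone at -0.75 with an adjusted p of 0.114. Of 4 measured bone and tendon markers 0 rose and 1 fell, where 13.1% of all genes rose and 13.2% fell. The means of this marker list were 3.81 to 4.46 in the sarcomas and 4.56 and 4.46 in the muscles.

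Col14a1, which coats fibrils in tendon and muscle sheaths, had 7.65, 7.66, 7.29 and 4.80 in the Ca/Ca sarcomas and 5.60 and 6.68 in the Ca/+ sarcomas, against 9.40 and 6.50 in the Ca/Ca and Ca/+ muscle. All 6 sarcomas were below the Ca/Ca muscle and 4 were above the Ca/+ muscle. The difference of -1.34 (SE 0.95, adjusted p = 0.349) was the most negative of the 36 chains, but it was 0.11 against the Ca/+ muscle alone. A second probe set of Col14a1, also above background by its mean, gave -1.47, and -0.21 against the Ca/+ muscle alone. The sign against that muscle was thus not fixed. Col15a1, a basement membrane chain of muscle fibres and capillaries, had 8.15, 7.73, 6.17 and 4.99 in the Ca/Ca sarcomas and 5.80 and 8.06 in the Ca/+ sarcomas, against 8.40 and 7.59. Of the 6 tumours 3 lay between the muscles and 3 were more than 1 below both, giving an SD of 1.34 (n = 6) and a difference of -1.18 (adjusted p = 0.367). Col16a1, a small fibril-associated chain, had 7.87, 7.92, 6.82 and 6.67 in the Ca/Ca sarcomas and 8.04 and 8.08 in the Ca/+ sarcomas, against 7.38 and 5.99. All 6 were above the Ca/+ muscle and 4 above the Ca/Ca muscle, with a difference of 0.88 (adjusted p = 0.244), and of 2.07 (adjusted p = 0.029) in the Ca/+ arrays alone, again 2 sarcomas against 1 muscle. Col12a1, a relative of Col14a1, had 5.35, 5.12, 5.11 and 5.11 in the Ca/Ca sarcomas and 4.79 and 4.94 in the Ca/+ sarcomas, against 4.76 and 4.63. All 6 were above both muscles, by a mean of 0.38 (adjusted p = 0.117).

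The other chains varied less. Col18a1, the source of the fragment endostatin, had 7.67 to 8.32 in the sarcomas (median 7.95) and 8.02 and 7.33 in the Ca/Ca and Ca/+ muscle. Col7a1, of the anchoring fibrils of skin, had 5.64 to 6.33 in the sarcomas and 5.68 and 5.71 in the muscles. Col25a1, a transmembrane chain that motor nerves need to reach muscle in mice, had 5.66 to 6.03 in the sarcomas and 6.13 and 6.02 in the muscles. The type IX chains of cartilage, Col9a1, Col9a2 and Col9a3, differed by -0.22, -0.07 and -0.11. Col20a1 had 3.95 to 4.49 in the sarcomas and 4.68 and 5.04 in the muscles and came closest to passing, with a difference of -0.58 (SE 0.19, adjusted p = 0.0502 in limma), and all 6 sarcomas were below both muscles. The transmembrane chain of skin attachment, Col17a1, had 2.91 to 3.83 in the sarcomas and 4.64 and 3.81 in the muscles (difference -0.76, adjusted p = 0.0797). Col13a1, Col19a1 and Col26a1 were below background on all 8 arrays, with differences of 0.23, 0.02 and -0.23.

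The levels of the fibrillar and beaded chains relative to normal muscle depended on which muscle was used. Against the Ca/Ca muscle, the median difference of the sarcoma mean was -0.76 over 9 fibrillar chains, 0.04 over 8 network chains, -1.40 over 3 beaded chains and -0.20 over 16 other chains. Against the Ca/+ muscle the medians were 0.66, -0.04, 0.26 and -0.03 in the same order. Over all 12393 genes the medians were 0.05 and 0.01. With both muscles together the medians were -0.39, 0.00, -0.57 and -0.14, and 0.03 over all genes. The plot of differences from each muscle shows this for every chain.

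**Figure D2:**
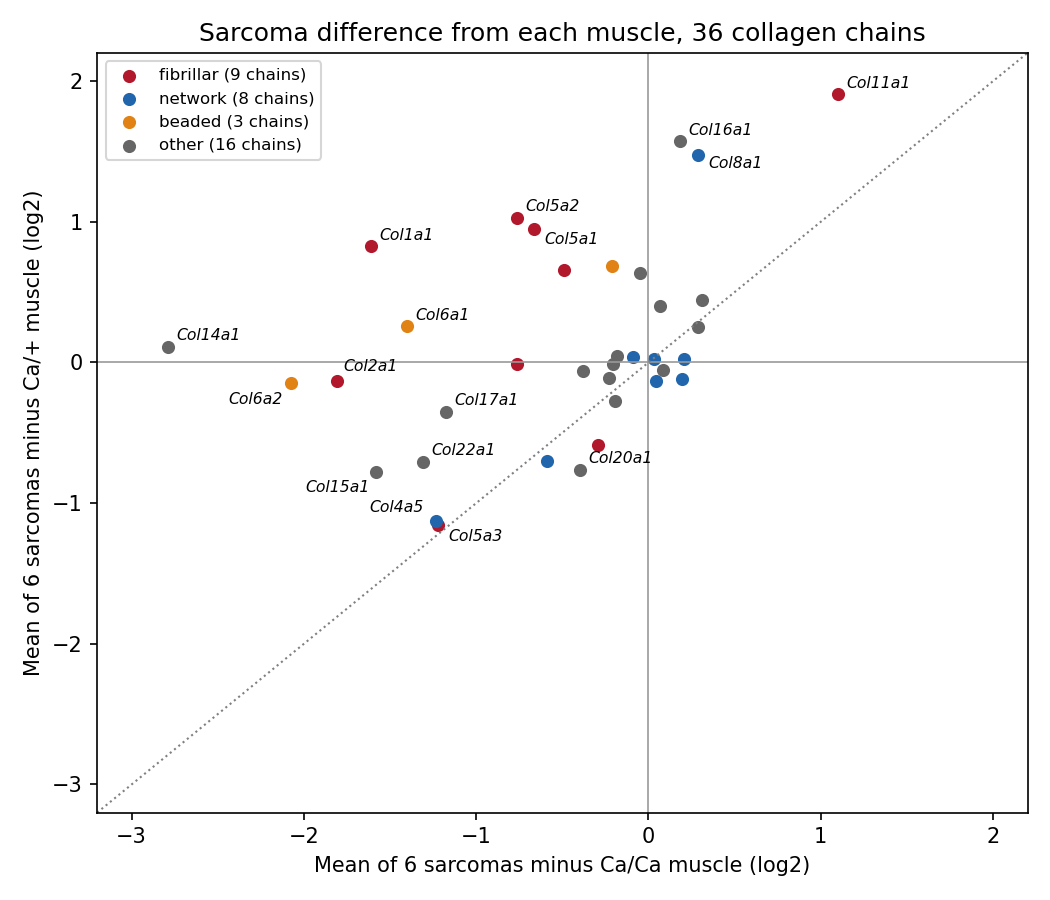
Difference of the mean of 6 sarcomas from the Ca/Ca muscle (x axis, log2) and from the Ca/+ muscle (y axis, log2), 1 point a chain, coloured by class; the dotted line marks equal differences. Points at the upper left, such as Col1a1 at -1.61 and 0.83, lie below the one muscle and above the other.

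The sarcoma mean lay below the Ca/Ca muscle and above the Ca/+ muscle for 10 of 36 chains, against 7.68% of all genes. These were Col1a1, Col1a2, Col5a1 and Col5a2 of the fibrillar class, Col6a1 and Col6a3 of the beaded class, Col10a1 of the network class, and Col9a2, Col14a1 and Col18a1. On the other probe set of Col14a1 the sarcoma mean was below both muscles, and on that of Col18a1 it was above both. All 6 sarcomas lay below the Ca/Ca muscle for 16 chains (23.7% of all genes), and all 6 lay above the Ca/+ muscle for 7 chains (27.7% of all genes). The 7 were Col5a1, Col5a2, Col11a1, Col12a1, Col13a1, Col16a1 and Col18a1. On another probe set each of Col5a1, Col5a2 and Col18a1, the lowest sarcoma was below the Ca/+ muscle. All 6 were above both muscles for 2 chains (20.0% of all genes) and below both for 5 (19.0% of all genes). The 5 were Col5a3, Col4a6, Col20a1, Col22a1 and Col26a1. On the second probe set of Col4a6, Ca/Ca sarcoma 1 was above both muscles.

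The muscles, with 1 array each, were compared without a test. The Ca/Ca muscle held at least 2-fold more than the Ca/+ muscle of 10 of 36 chains, against 4.49% of all genes, and at least 2-fold less of 0 chains, against 2.53% (7.02% of all genes in either direction). The largest differences were 2.90 for Col14a1, 2.44 for Col1a1 and 1.93 for Col6a2. The other 7 chains were Col5a2 (1.79), Col2a1 (1.68), Col6a1 (1.66), Col5a1 (1.61), Col16a1 (1.39), Col8a1 (1.19) and Col1a2 (1.15). The basement membrane chains Col4a1 and Col4a2 did not share this, at -0.18 and -0.01. Other probe sets gave 2.52 for Col14a1, 2.33 for Col1a1, 2.15 for Col1a2, 1.97 for Col6a2, 1.58 for Col5a2, and 1.03 and 1.17 for Col5a1. The other probe set of Col8a1 gave 0.18 and lay below background in both muscles. The median over the 36 chains was 0.32, and over all genes it was -0.01. Whether the Braf genotype or the single muscle sampled set this difference cannot be told apart.

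Markers of several cell types also differed between the muscles. Fibroblast markers had a mean level of 8.79 (Ca/Ca muscle) and 8.29 (Ca/+ muscle), and 2 of 10 were at least 2-fold higher. Macrophage markers had 10.06 and 8.64 (6 of 8 at least 2-fold higher), Schwann cell markers 7.30 and 6.16 (4 of 5), and epithelial markers 5.77 and 4.0 (4 of 7), while the epithelial markers Krt5 and Krt14 were near background in both. Adipocyte markers had 9.68 and 11.34 (0 of 5), muscle fibre markers 12.79 and 12.71 (0 of 12), and endothelial and mural markers 7.92 and 8.13 (0 of 10). In the 6 sarcomas the list means were 7.93 to 8.61 for fibroblasts, 9.54 to 10.71 for macrophages, 5.31 to 5.53 for Schwann cells, 4.14 to 6.13 for epithelium and 5.28 to 7.31 for adipocytes. Of 10 fibroblast markers, 2 (Thy1 and Twist2, differences 1.73 and 2.37) rose and 1 (Dpt) fell in sarcomas. Of 8 macrophage markers 2 rose, and 3 of 5 Schwann, 1 of 7 epithelial and 5 of 5 adipocyte markers fell. Of all genes, 13.1% rose and 13.2% fell. The part of these cells in the collagen levels was not tested.

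Between the Braf genotypes, the sarcomas of Ca/Ca mice held less Col6a3, Col4a1 and Col4a2 than those of Ca/+ mice by value, and no chain passed. The limma fit of the 6 sarcomas called 0 of 36 chains, against 0.00% of all genes, and at an unadjusted p under 0.05 it held 3 of 36 chains, against 7.84% of all genes. Col6a3 was between 9.08 and 9.95 in the 4 Ca/Ca sarcomas and at 11.22 and 10.33 in the Ca/+ sarcomas. Its difference was -1.40 (SE 0.34, limma unadjusted p = 0.0057, limma adjusted p = 0.579). Col4a1 differed by -0.93 (SE 0.29, adjusted p = 0.618) and Col4a2 by -1.10 (SE 0.44, adjusted p = 0.629). Without Ca/+ sarcoma 1 both became -0.46 (adjusted p = 0.946), and without Ca/+ sarcoma 2 they were -1.40 for Col4a1 and -1.74 for Col4a2. For both chains Ca/+ sarcoma 2 (11.26 and 10.05) was closer to the highest Ca/Ca sarcoma (11.04 and 9.89) than to Ca/+ sarcoma 1 (12.20 and 11.33). The spread within the Ca/+ genotype rests on 2 arrays.

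The test of whether the difference from muscle differed between genotypes also called 0 of 36 chains (0.00807% of all genes, a single gene that is no collagen). It treats each lone muscle as varying like the sarcomas. At an unadjusted p under 0.05 it held 6 of 36 chains, against 7.22% of all genes: Col1a1 (-2.95), Col6a2 (-2.71), Col6a3 (-2.29), Col16a1 (-2.13), Col6a1 (-2.03) and Col2a1 (-1.53), all lower in the Ca/Ca contrast, with limma adjusted p-values of 0.356 or more. Each contrast holds the muscle difference given above. The interaction was negative for 25 of 36 chains and for 49.3% of all genes.

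The tumours differed from each other in the level of many collagen chains. Across the 6 sarcomas the median SD of all 36 chains was 0.29, against 0.24 over all 12393 genes, and over the 22 chains above background it was 0.60, with no such limit set on the genes. The widest were Col15a1 (SD 1.34), Col14a1 (1.18) and Col8a1 (1.10), and among the bright fibrillar chains Col3a1 was the narrowest (0.22). The second probe set of Col3a1 was wider, at 7.60 to 9.30 in the sarcomas. The map of all chains by array shows the pattern.

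**Figure D3:**
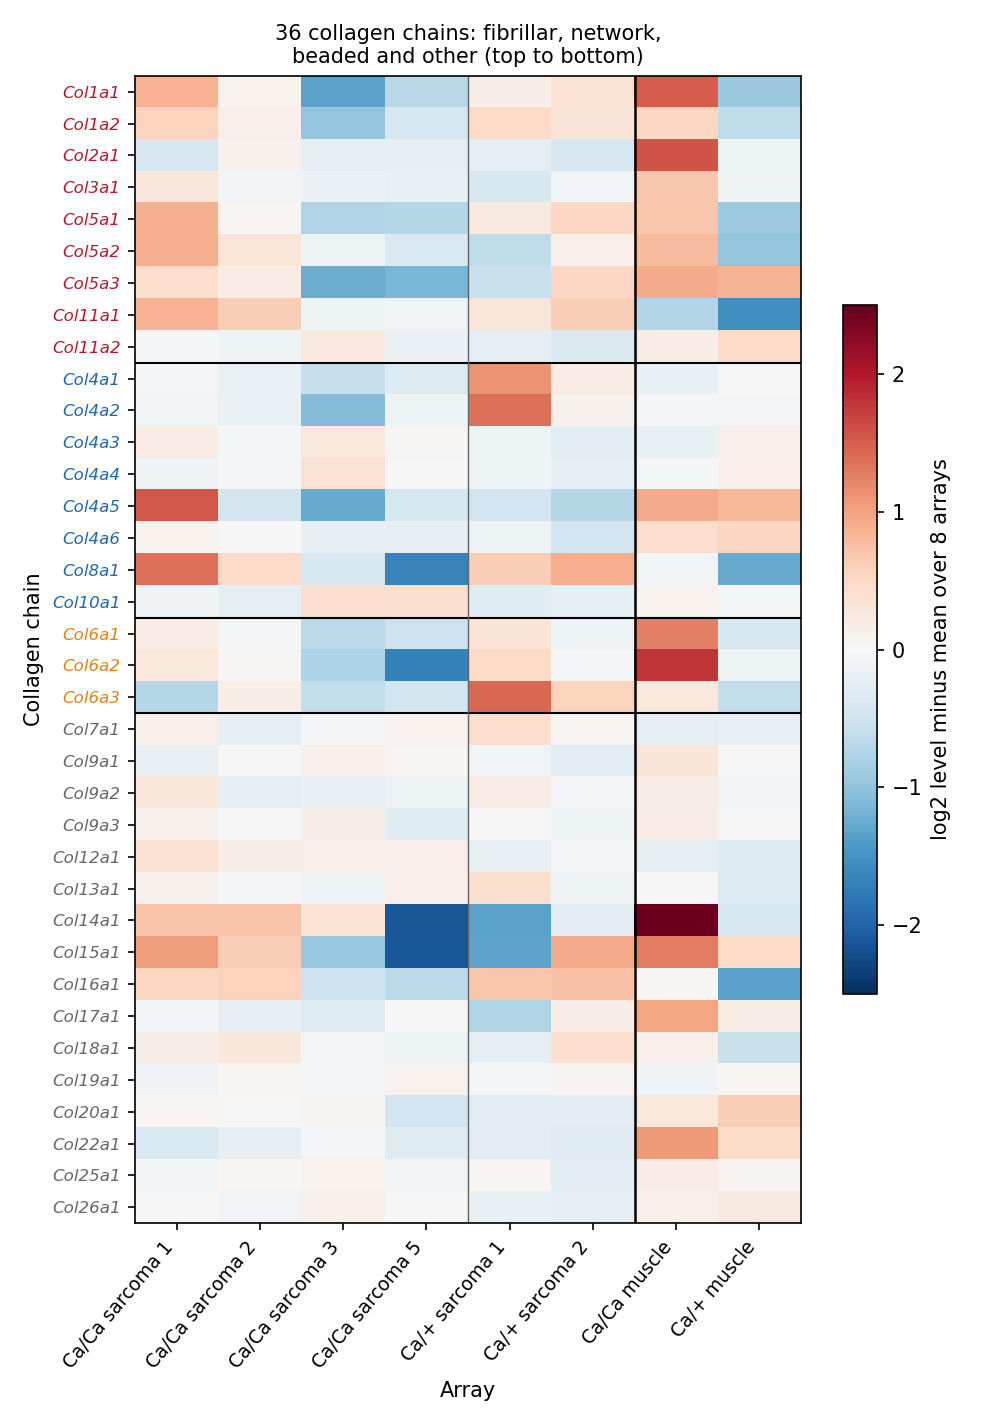
Log2 level of each of 36 collagen chains (rows, by class) minus its mean over 8 arrays, for 4 Ca/Ca sarcomas, 2 Ca/+ sarcomas and the 2 muscles (columns); red is above the chain's mean and blue below. Ca/Ca sarcoma 1 is red for most bright fibrillar chains, Ca/Ca sarcomas 3 and 5 are blue, Ca/+ sarcoma 1 is red for Col4a1, Col4a2 and Col6a3, and the Ca/Ca muscle is red where the Ca/+ muscle is blue for Col1a1, Col5a1, Col5a2 and Col6a1.

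Which tumour was highest differed among the chains, and its relation to class was not tested. Of 7 fibrillar chains above background, Ca/Ca sarcoma 1 was the highest sarcoma for 6 and Ca/Ca sarcoma 3 the lowest for 5. For all 3 beaded chains, and for Col4a1 and Col4a2, Ca/+ sarcoma 1 was the highest. For Col8a1, the other network chain above background, Ca/Ca sarcoma 1 was the highest. Of 9 other chains above background, Ca/Ca sarcoma 3 was the highest for 3 and Ca/Ca sarcoma 5 the lowest for 4. In Ca/Ca sarcoma 5, whose whole profile stood apart, Col14a1 (4.80), Col15a1 (4.99), Col8a1 (5.26) and Col6a2 (7.71) were the lowest of all 8 arrays. The macrophage list mean was also lowest in that tumour, at 9.54, and the epithelial list mean highest, at 6.13, and their part was not tested. Without Ca/Ca sarcoma 5 the comparison with muscle again gave 1 chain higher and 2 lower.

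Chains that build the same molecule followed each other across tumours to different degrees, as the plot of partner chains shows. Over 11 pairs tested by exact permutation of 6 sarcomas (720 orders, two-sided), 2 pairs passed after Benjamini-Hochberg adjustment over the pairs. Col1a1 and Col1a2 had a Pearson's r of 0.967 (exact permutation p = 0.00417, adjusted p = 0.0229) and a Spearman's rho of 0.943 (exact permutation p = 0.0167, adjusted p = 0.0611). Without Ca/Ca sarcomas 3 and 5, the farthest from the median of Col1a1, r was 0.694, so the relation rests in part on those tumours. With all probe sets of each chain averaged the pair no longer passed (r = 0.934, adjusted p = 0.0611 by exact permutation). Col4a1 and Col4a2 had an r of 0.964 (exact permutation p = 0.00278, adjusted p = 0.0229) and a rho of 0.943 (exact permutation p = 0.0167, adjusted p = 0.0611), and r was 0.872 without Ca/Ca sarcoma 3 and Ca/+ sarcoma 1. These are the chains whose overlapping windows are printed above, and the part of that stretch in the correlation was not tested.

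**Figure D4:**
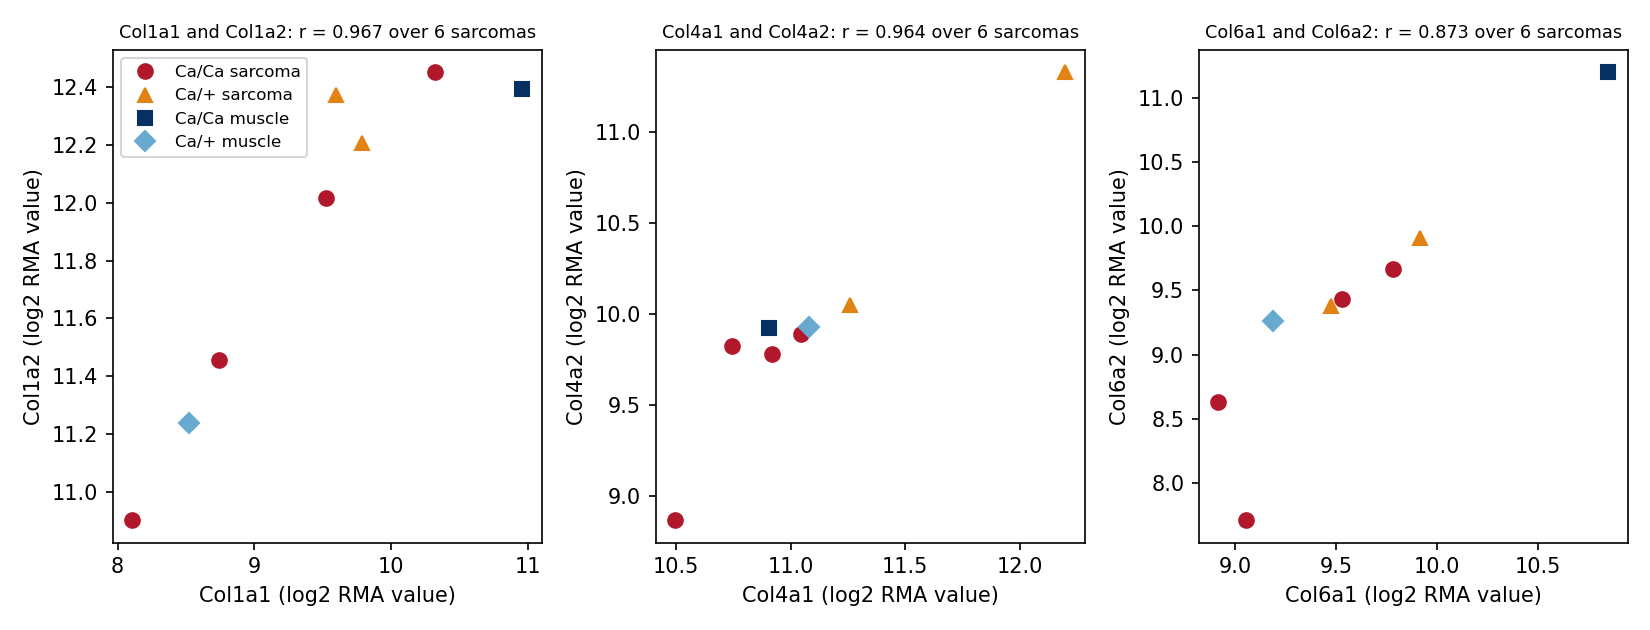
Log2 level of partner chains on 8 arrays, Col1a1 and Col1a2 (left), Col4a1 and Col4a2 (middle) and Col6a1 and Col6a2 (right); circles are Ca/Ca sarcomas, triangles Ca/+ sarcomas, the square and diamond the Ca/Ca and Ca/+ muscle, and r is over the 6 sarcomas alone. The points of each pair rise together, and Ca/+ sarcoma 1 is far above the other arrays for Col4a1 and Col4a2.

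Col6a1 and Col6a2 had an r of 0.873 (exact permutation p = 0.0167, adjusted p = 0.0611) and a rho of 0.943 (exact permutation p = 0.0167, adjusted p = 0.0611), and r was 0.987 without Ca/Ca sarcomas 3 and 5. For the remaining chain of that molecule, r was 0.595 between Col6a1 and Col6a3 (exact permutation adjusted p = 0.290). Col5a1 and Col5a2 had an r of 0.611 (exact permutation adjusted p = 0.290), and Col1a1 and Col3a1 had an r of 0.490 (exact permutation adjusted p = 0.402). Whether these r differ from each other was not tested. The other 5 pairs, of Col4a3 with Col4a4, Col4a5 with Col4a6, Col9a1 with Col9a2 and with Col9a3, and Col11a1 with Col11a2, had adjusted p-values of 0.172 to 0.919 by exact permutation, and 4 of the 5 held a chain at or below background.

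Several genes that handle collagen inside the cell rose in sarcomas. Of 14 measured genes for collagen modification and folding, 8 rose, 0 fell and 6 did not pass, with a median difference of 0.88. The largest rise was that of P3h4, a member of the lysyl hydroxylase complex of the endoplasmic reticulum, which had 8.02, 7.79, 7.79 and 8.34 in the Ca/Ca sarcomas and 7.73 and 7.72 in the Ca/+ sarcomas, against 6.63 and 5.71 in the Ca/Ca and Ca/+ muscle. Every sarcoma was above both muscles, and P3h4 rose by 1.73 (SE 0.26, limma adjusted p = 0.0023). P4ha1, a catalytic subunit of prolyl 4-hydroxylase, rose by 1.21 (limma adjusted p = 0.0428). It did not pass after cyclic loess (0.99, limma adjusted p = 0.0847) or housekeeping centring (1.01, limma adjusted p = 0.0521). The prolyl 3-hydroxylases P3h3 and P3h1 rose by 1.00 (limma adjusted p = 0.0306) and 0.91 (limma adjusted p = 0.0158). P3h3 did not pass after cyclic loess (0.87, limma adjusted p = 0.0508). Nor did it pass without Ca/Ca sarcoma 1 or without Ca/+ sarcoma 2 (limma adjusted p of 0.0566 and 0.0561). These lists were chosen with earlier results of these data known. The count of 8 was 10 without the Ca/Ca muscle (8.39% of all genes higher), 1 without the Ca/+ muscle (3.00%), 0 in the Ca/Ca arrays alone (0.734%), 4 in the Ca/+ arrays alone (4.78%) and 3 after cyclic loess (8.52%), against 13.1% of all genes in the fit of all arrays. The 1 gene without the Ca/+ muscle was P3h4, at 1.26 (adjusted p = 0.0254).

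**Figure D5:**
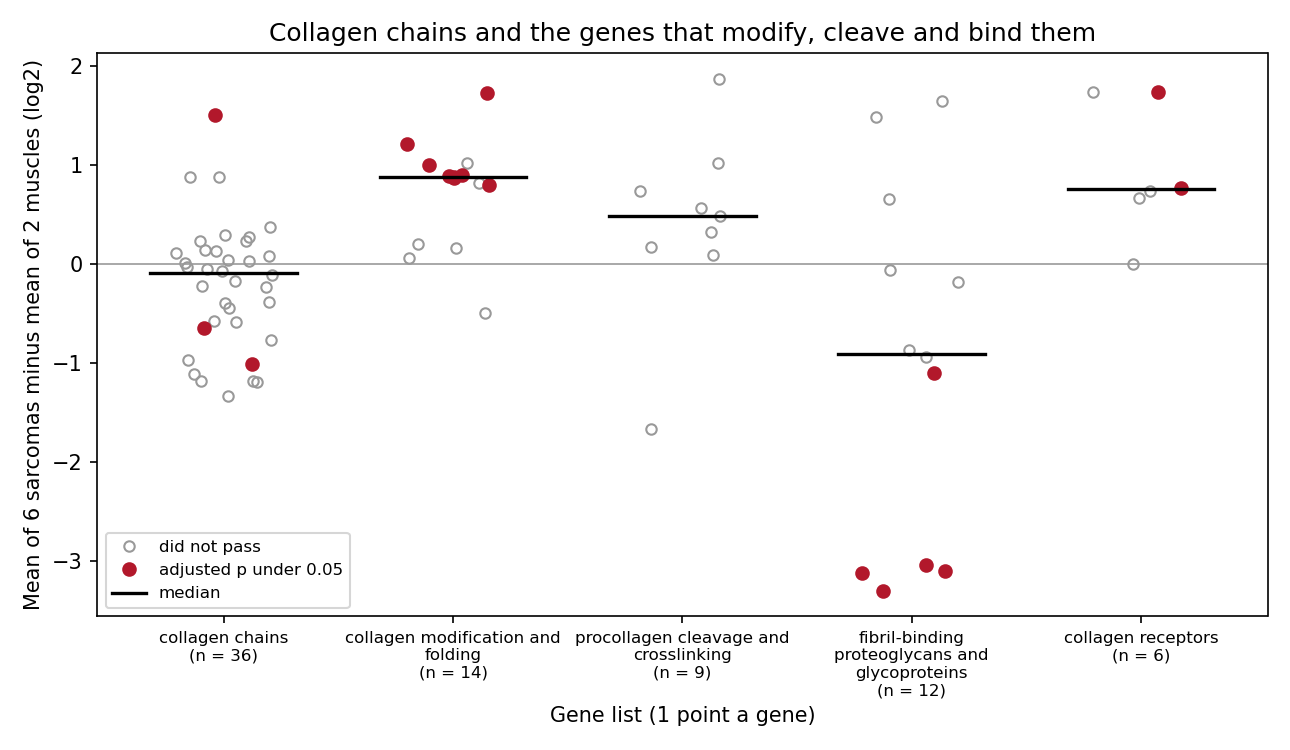
Difference of the mean of 6 sarcomas from the mean of 2 muscles (y axis, log2) for 36 collagen chains and for the genes that modify and fold, cleave and crosslink, bind, and sense collagen (x axis); filled points passed an adjusted p of 0.05 in limma and bars are medians. The folding genes have a median of 0.88 and the fibril-binding genes of -0.90, while the chains have a median of -0.09.

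Outside the cell, of 9 genes that cleave procollagen or crosslink fibrils 0 passed, with a median of 0.49; the lysyl oxidases Lox and Loxl3 differed by 0.74 (adjusted p = 0.355) and 1.88 (adjusted p = 0.0774). Of 12 proteoglycans and glycoproteins that bind fibrils, 0 rose and 5 fell, with a median of -0.90, where 13.1% of all genes rose and 13.2% fell. Tnxb, the large linker tenascin X, fell by 3.30, Fmod (fibromodulin) by 3.12, Ogn (osteoglycin) by 3.10 and Dpt (dermatopontin) by 3.04 (limma adjusted p of 0.000227, 0.00251, 0.000722 and 0.00841), all with the 6 sarcomas below both muscles. The sarcomas held 4.50 to 5.72 of Tnxb, 3.80 to 5.60 of Fmod, 5.84 to 7.34 of Ogn and 6.12 to 8.43 of Dpt. The Ca/Ca and Ca/+ muscle held 8.14 and 8.67 of Tnxb, 7.91 and 8.04 of Fmod, 9.80 and 9.74 of Ogn, and 10.54 and 10.66 of Dpt, so that for these genes the muscles were close to each other. Without the Ca/+ muscle Dpt was at -2.98 and no longer passed (adjusted p = 0.0782). Of 6 collagen receptors, 2 rose, where 13.1% of all genes rose. Mrc2, which takes up collagen fragments, rose by 1.74 (limma adjusted p = 0.0296). Itgb1, the beta chain of collagen-binding integrins, rose by 0.77 (limma adjusted p = 0.0446). After cyclic loess the 2 differed by 1.52 and 0.52 and did not pass (limma adjusted p of 0.0513 and 0.170). With all probe sets averaged, Itgb1 was at 0.43 and did not pass (limma adjusted p = 0.0767). Without the Ca/+ muscle Mrc2 was at 0.81 (adjusted p = 0.314) and none of the 6 receptors passed. Of 9 transcription regulators of collagen genes, 2 rose, where 13.1% of all genes rose. Sox9 rose by 1.50 (limma adjusted p = 0.0361) and Trps1 by 0.82 (limma adjusted p = 0.0491). Their differences of 1.38 and 0.63 after cyclic loess did not pass (limma adjusted p of 0.0520 and 0.119). Without the Ca/+ muscle Sox9 was at 0.63 (adjusted p = 0.366) and without the Ca/Ca muscle at 2.38 (adjusted p = 0.0054). Trps1 did not pass without either muscle, at 0.69 (adjusted p = 0.296) and 0.95 (adjusted p = 0.114) in the same order.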

How the data were processed

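Total RNA of 6 sarcomas and 2 muscles was hybridised to Affymetrix arrays, 1 array a sample. The authors deposited log2 expression values per probe set, made with RMA per the submitters' processing notes. The RMA version and whether all arrays were run through it together are not stated in the sources used here. RMA gives arrays 1 distribution, so a change in total RNA is not measured. The number of arrays limits the precision, and batch or scan date was not given. The arrays were distinct, sharing no more than 32 identical values per pair over 12393 genes, and 0 columns belonged to other samples.

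Of 22626 probe sets without controls, 20380 had 1 gene symbol in the platform annotation, 691 had several and 1555 had none. The brightest probe set by mean over 8 arrays stood for a gene. The 36 chains had 58 probe sets, 19 chains had more than 1, and 18 of the 22 others gave a difference of the same sign. No filter on low values was set. Differences were tested with limma 3.58.1 in R 4.3.3 (lmFit and eBayes), with Benjamini-Hochberg adjustment over 12393 genes and a threshold of 0.05; every adjusted p of a gene comes from limma. Sarcoma against muscle used all arrays, the genotypes used the 6 sarcomas, and the interaction used 4 group means. The muscles, 1 array each, had no test and a size rule of 2-fold. Partner chains were correlated over the 6 sarcomas with exact permutation tests in scipy 1.17.1. Promoters came from RefSeq windows (GRCm38.p6). The procedure was tested on simulated data.

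Every chain is accounted for. Per-array values are given for chains past 0.05, for types I, III, IV, V and VI, and for the 3 largest differences each way among the rest; from other lists at most 4 members past 0.05 were named, and Lox, Loxl3, Krt5, Krt14, Thy1 and Twist2 beside them. The members, classes and lists were chosen with earlier results of these data known. Alternatives changed the probe set, dim-gene filter, normalization, variance model, array weights, arrays, covariate and replicate block.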

Additional observations from a re-analysis of the deposited data

Results flagged for a closer look

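Among 72 groups of collagen levels (36 chains, over 6 sarcomas and over the 4 Ca/Ca sarcomas), 5 held a tumour far from the others by Dixon's ratio, where chance gives about 1 in 20 groups. Col14a1 was at 4.80 in Ca/Ca sarcoma 5, with the next Ca/Ca sarcoma at 7.29. Col4a2 was at 8.87 in Ca/Ca sarcoma 3, the lowest Ca/Ca sarcoma, with the next at 9.78. Col4a5 was at 5.95 in Ca/Ca sarcoma 1, the highest of the 6 sarcomas, with the next at 3.98. Col12a1 was at 5.35 in Ca/Ca sarcoma 1, with the next at 5.12, a gap of little size. Col20a1 was at 3.95 in Ca/Ca sarcoma 5, with the next at 4.44, and all 4 values lay below the background level of 4.58.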

How the results depend on the processing

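Against muscle, 1 chain was higher and 2 were lower. Without the dimmest 25% of genes, which removes Col22a1 and Col4a6 and leaves 23 chains, 1 was lower, Col20a1 (adjusted p = 0.0482); without the dimmest 50%, which removes Col11a1 too and leaves 16 chains, 0 were higher and 0 lower. Centring on housekeeping genes gave 5 lower, adding Col2a1, Col17a1 and Col20a1. The Ca/Ca arrays alone gave 0 higher, and the Ca/+ arrays alone 3 higher (Col11a1, Col8a1 and Col16a1) and 0 lower. Leaving out single arrays gave 0 to 1 higher and 1 to 4 lower, the 0 without the Ca/+ muscle, the 1 lower without the Ca/Ca muscle and the 4 lower without Ca/Ca sarcoma 3. The cause was not tested. Of 651 differences of single chains under alternatives, 628 stayed on the same side of the threshold, 7 lost a call and 16 gained one, while 62 of chains not called changed sign. Among partner chains, averaging probe sets left 1 of 2 pairs past 0.05.

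The genotype and interaction counts were 0 under every alternative that could be fitted, and the interaction could not be fitted without a muscle. The labels share only the numbers 1 and 2 between genotypes and do not pair them. The r of deviations was -0.189 for number 1 and 0.293 for number 2. It cannot test pairing, since the deviations of the 2 Ca/+ sarcomas from their mean mirror each other. A fit with the number as a replicate block gave 0 chains higher and 0 lower. The muscle comparison gave 10 chains at least 2-fold higher, and 8 after housekeeping centring. The median difference of all genes was 0.03, against -0.18 after housekeeping centring. Chains near background had little range in which to fall, and the 2 muscles set the precision of the comparison. The background list without Cyp2e1 was an alternative chosen after seeing the data.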
